A study of Homo sapiens with 6 samples.

Results

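The 54 genes described here encode the machinery of RNA polymerase I (Pol I) and the factors that turn its transcript into ribosomal subunits, and they were taken by symbol from the 20667 gene symbols in the deposited FPKM tables (fragments mapped to a gene, relative to its length and to the library's mapped fragments). All 54 symbols were found. They fall into 14 genes of the Pol I machinery, 37 processing factors and 3 subunits of RNA polymerase III (Pol III). The libraries came from U2932 cells, a human line of the activated B-cell-like (ABC) form of diffuse large B-cell lymphoma (DLBCL), and were compared to see how lowering ROCK2, a protein kinase, changes transcription. In the ROCK2 knockdown group (ROCK2 KD) the cells carried pLKO.1 lentiviral shRNA constructs against ROCK2, and in the control group (Scr) a scrambled shRNA in the same vector. Both groups therefore carry an integrated vector with puromycin resistance and tGFP, and both were stable lines obtained by sorting and puromycin selection, so that each replicate is a library of a selected population and not of untreated U2932 cells. Each group had 3 libraries, numbered 1 to 3 in both, and nothing in the labels says whether these numbers mark separate infections, cultures or harvests. Unless stated otherwise, the p-values below come from fits on the differences between libraries of the same number. They measure the spread of these differences, which may in part be technical, and not the spread between libraries of a group.

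Pol I transcribes the ribosomal RNA genes in the nucleolus into a long precursor. Its start needs the promoter factor SL1, made of TBP and the TAF1 subunits, together with the DNA-bending factor UBTF and the initiation factor RRN3. The precursor is then modified by small nucleolar RNA-protein particles (snoRNPs), cut, and folded into the small and large subunits with the help of many assembly factors, while Pol III makes the 5S ribosomal RNA and the tRNAs. Proliferating lymphoma cells depend on a high output of this pathway, and the transcription factor MYC, which binds the E-box CACGTG, is a known activator of many of its genes.

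Each of 3 motifs searched was found in promoters of both the processing factors and the Pol I machinery, in shares that are given as a description, with no test of their difference. The promoters are shown first because sequence was not used to choose the genes. RefSeq promoter windows (GRCh38.p14, 300 bases each, 250 before the start site and 50 after it) were found for 45 of the 54 genes and were searched on both strands. The canonical E-box CACGTG was present in 17 of the 31 processing factors with a window (54.8%) and in 1 of 13 genes of the Pol I machinery (7.69%), beside 13.2% of the 8446 tested genes with a window and 8.77% of all 27305 genes with one. The ETS core CCGGAAG, the motif bound by ETS family factors, was present in 8 of 13 Pol I genes (61.5%) and in 11 of 31 processing factors (35.5%), against 25.7% of the tested genes. The variant E-box CACGCG was present in 6 of 13 Pol I genes (46.2%), 7 of 31 processing factors (22.6%) and 23.2% of the tested genes. Different motifs of these 3 cannot share bases, although copies of CACGCG or of CCGGAAG on opposite strands can. A match says only that these letters stand in the window. The plot of motif shares sets these values side by side.

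**Figure D1:**
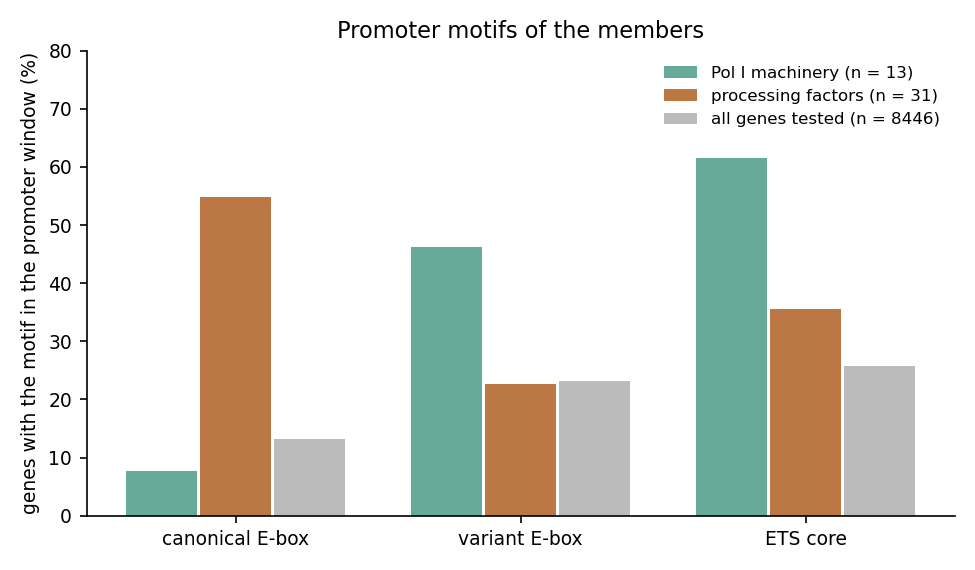
Percentage of genes whose 300-base promoter window holds each motif on either strand, for the Pol I machinery, the processing factors and all genes tested. The canonical E-box reaches 54.8% in the processing factors and 7.69% in the Pol I machinery, and the ETS core 61.5% in the Pol I machinery.

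In 8 genes the E-box begins before the start site. The 100 bases that end just before the start site are given for 4 of them, with the motifs in capitals (CTTCCGG is the ETS core read on the other strand), to show where they lie. NOP10 (chr15:34343137-34343236, minus strand) belongs to the H/ACA snoRNP and has a first E-box at 170 bases and a second at 11 bases before the start, with an ETS core between them. UTP20 (chr12:101280005-101280104, plus strand) is a small subunit processome protein, LYAR (chr4:4290022-4290121, minus strand) a nucleolar protein, and CD3EAP (chr19:45406544-45406643, plus strand) the only one of the 13 Pol I genes with an E-box in its window.
NOP10: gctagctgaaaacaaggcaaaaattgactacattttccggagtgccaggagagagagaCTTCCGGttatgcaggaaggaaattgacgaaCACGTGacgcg
UTP20: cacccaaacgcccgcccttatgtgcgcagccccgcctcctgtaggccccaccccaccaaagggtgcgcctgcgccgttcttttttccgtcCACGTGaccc
LYAR: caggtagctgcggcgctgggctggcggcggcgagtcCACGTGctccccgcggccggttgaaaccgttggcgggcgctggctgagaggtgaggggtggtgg
CD3EAP: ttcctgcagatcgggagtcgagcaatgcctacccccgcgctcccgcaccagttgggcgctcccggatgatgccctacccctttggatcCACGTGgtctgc

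The next 3 promoters show the ETS core (capitals) in genes described below. They were chosen for the motif and stand for no link between the motif and a direction, since UBTF and POLR1D, also lower in all pairs, hold no ETS core in their windows. NOC2L (chr1:959257-959356, minus strand) is a large subunit assembly factor, TAF1D (chr11:93741496-93741595, minus strand) an SL1 subunit and EBNA1BP2 (chr1:43172291-43172390, minus strand) a large subunit assembly factor with 2 cores in a row, whose windows also hold an E-box outside the bases shown. In TAF1C, another SL1 subunit, a core begins 5 bases before the start site and runs across it.
NOC2L: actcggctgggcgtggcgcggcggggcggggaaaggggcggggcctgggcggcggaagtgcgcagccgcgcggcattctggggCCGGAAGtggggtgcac
TAF1D: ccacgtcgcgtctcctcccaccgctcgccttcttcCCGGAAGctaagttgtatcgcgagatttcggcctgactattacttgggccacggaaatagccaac
EBNA1BP2: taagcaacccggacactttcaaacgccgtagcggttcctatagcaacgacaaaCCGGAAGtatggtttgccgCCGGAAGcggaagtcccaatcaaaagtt

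The deposited FPKM of a library summed to between 208289 and 480612, and the libraries of replicate 1 had the lowest sums in both groups, so the libraries were brought to a common level with a trimmed mean of their log ratios, and values are given as scaled FPKM. Within a pair, the depth of the ROCK2 KD library relative to Scr, read from the smallest steps between values, was 0.973, 0.835 and 0.908 in replicates 1, 2 and 3. ROCK2, the targeted gene, stood at a scaled FPKM of 4.03, 4.33 and 1.06 in ROCK2 KD replicates 1, 2 and 3 and at 6.34, 5.83 and 4.91 in Scr. Its log2 differences within the pairs were -0.54, -0.36 and -1.52, so that the knockdown was lower in every pair and deepest in replicate 3 (limma, unadjusted p = 0.00883, adjusted p = 0.811). Defining B cell genes were present in every library, with a summed scaled FPKM of 1029 to 2124 in ROCK2 KD and 695 to 2018 in Scr over 9 markers. Of 15 markers of T cells, myeloid cells, erythroid cells, stroma and epithelium, 14 stayed under an FPKM of 1 in all libraries, and the exception was EPCAM.

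All 54 genes passed the filter on low values (an FPKM of 1 or more in 3 or more of the libraries) and reached an FPKM of at least 1 in all 6 libraries, between 2.24 and 1180. In limma with the replicate block over 10526 genes, 0 of the 54 had an adjusted p under 0.05, against a background of 0% of all genes tested. At an unadjusted p under 0.05, 3 of the 54 were lower in ROCK2 KD (TAF1C, POLR1D and NOC2L), where 2.30% of all genes tested were lower, and 0 were higher, where 3.09% were. The groups overlapped for all 54 genes (2.14% of all genes tested did not overlap). Over the 54 genes the median log2 fold change, ROCK2 KD minus Scr, was -0.05, with 39 genes below 0 and 15 above, beside a median of -0.00 over all genes tested. The spread of the 3 pair differences (SD) was larger than the fold change for 48 of the 54 genes, and for 77.7% of all genes tested. These are bulk libraries, in which fewer cells of a type and less RNA per cell cannot be told apart, and FPKM are relative to all fragments of a library, so a change in the total amount of RNA would not be seen.

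Of the 54 genes, the pair differences varied least for TAF1C (SD 0.03), an SL1 subunit that works with TBP at the ribosomal DNA promoter and lies on chromosome 16 of GRCh37 (84211453 to 84220676, minus strand). Its scaled FPKM was 10.0, 3.92 and 3.60 in ROCK2 KD replicates 1, 2 and 3 and 12.9, 5.46 and 4.79 in Scr, or 5.84 ± 3.61 and 7.73 ± 4.52 (SD, n = 3). Replicate 1 was high in both groups, and within each pair the ROCK2 KD library was the lower one. The pair differences of -0.34, -0.40 and -0.33 gave a log2 fold change of -0.36 (standard error 0.10, limma, unadjusted p = 0.0119, adjusted p = 0.821). In the annotation, 8.07% of its exon bases are shared with DNAAF1 on the opposite strand. The labels do not say whether the libraries keep strand, so reads there cannot be told apart.

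POLR1D, a small subunit that Pol I shares with Pol III, lies on chromosome 13 (28194879 to 28318374, plus strand). It was measured at 69.0, 49.2 and 57.2 in ROCK2 KD replicates 1, 2 and 3 and at 75.4, 69.5 and 67.0 in Scr, or 58.5 ± 10.0 and 70.6 ± 4.34 scaled FPKM (SD, n = 3). Only ROCK2 KD replicate 1 reached into the range of the Scr libraries. Its pair differences were -0.13, -0.49 and -0.22, with a log2 fold change of -0.28 (standard error 0.11, limma, unadjusted p = 0.0361, adjusted p = 0.905).

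NOC2L, a large subunit assembly factor that also binds histones, lies on chromosome 1 (879583 to 894689, minus strand) and was the only processing factor past an unadjusted p of 0.05. Its scaled FPKM was 28.6, 38.9 and 44.8 in ROCK2 KD and 34.8, 44.5 and 56.1 in Scr, or 37.4 ± 8.22 and 45.1 ± 10.7 (SD, n = 3). In both groups replicate 1 was the lowest and replicate 3 the highest library, so that ROCK2 KD replicate 3 was above Scr replicate 2 while every pair was lower. The pair differences were -0.28, -0.19 and -0.32 and the log2 fold change -0.26 (standard error 0.09, limma, unadjusted p = 0.0284, adjusted p = 0.897). Exons of SAMD11 on the opposite strand cover 6.73% of its exon bases.

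In the alternative closest to the tools the study names, ComBat on the replicate number followed by limma with no replicate block, TAF1C had an adjusted p of 0.0279 and NOC2L of 0.0339. Their log2 fold changes there were -0.27 and -0.20. In that fit 297 of the 10526 genes had an adjusted p under 0.05, against 0 with the replicate block, so the calls of both genes rest on how the replicate is handled. TAF1C was lower with each replicate left out in turn and kept an unadjusted p under 0.05 without replicate 1 (0.0312) and without replicate 3 (0.0372), not without replicate 2 (0.0651). POLR1D had a log2 fold change of -0.18 without replicate 2 (limma, unadjusted p = 0.222), and its unadjusted p was 0.0297 without replicate 1 and 0.0671 without replicate 3. NOC2L was lower with each replicate left out, between -0.30 and -0.23, and had an unadjusted p above 0.05 in all 3 of these fits (limma, 0.0558 to 0.118). With a correction for GC content, NOC2L had a log2 fold change of -0.20 (limma, unadjusted p = 0.0846), TAF1C of -0.26 (unadjusted p = 0.0448) and POLR1D of -0.28 (unadjusted p = 0.0338), so that of the 3 only NOC2L moved past 0.05.

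The plot of levels by library sets the 3 genes with an unadjusted p under 0.05, none of which had an adjusted p under 0.05 in limma with the replicate block, beside genes whose pairs differ in sign.

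**Figure D2:**
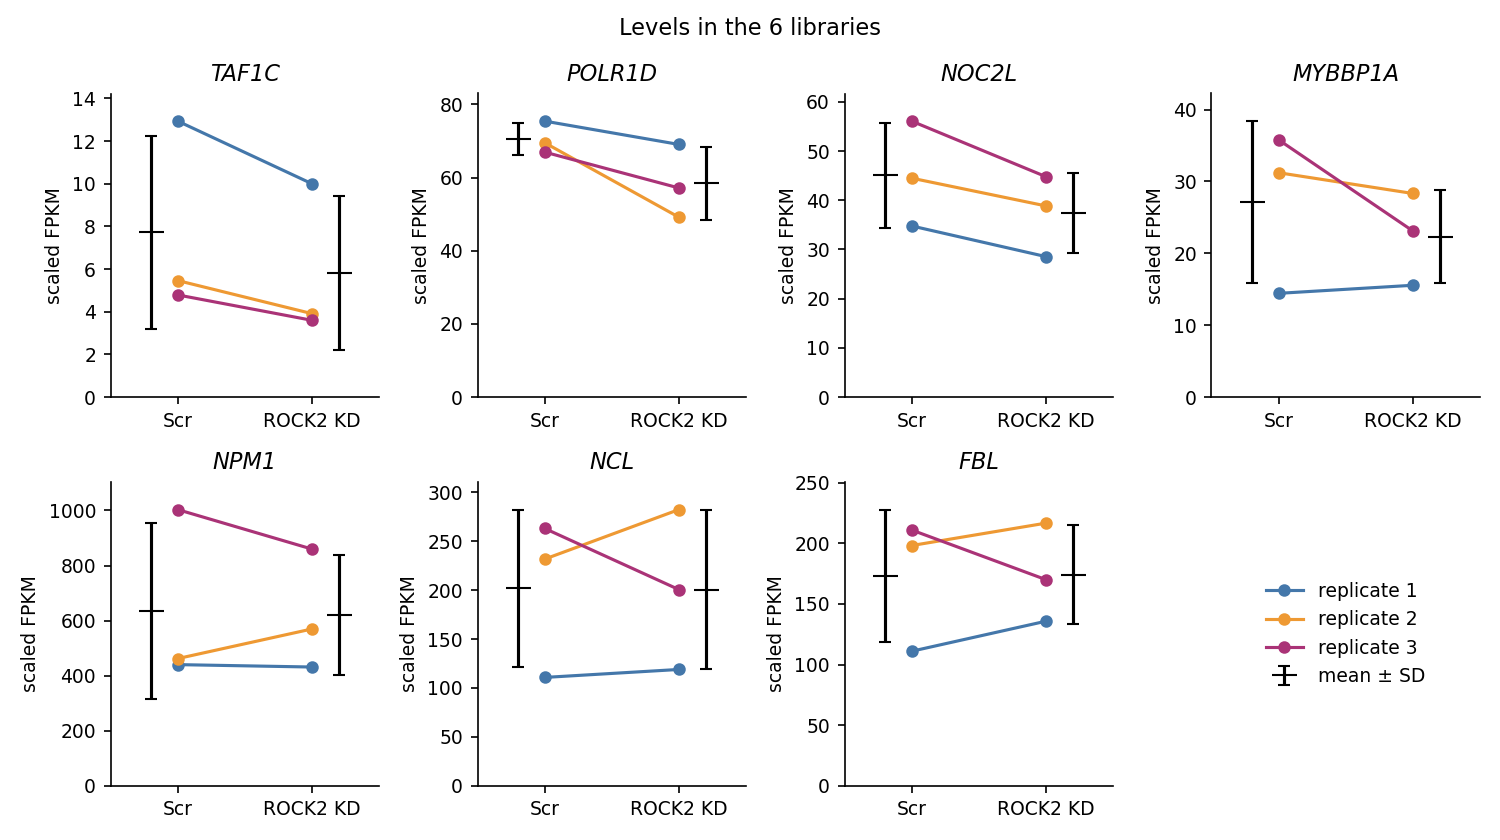
Scaled FPKM (linear axes from 0) of 7 genes in the 3 Scr and 3 ROCK2 KD libraries. Lines join libraries of the same replicate number, and black marks give the mean ± SD of 3 libraries. TAF1C, POLR1D and NOC2L are lower in ROCK2 KD along all 3 lines, while the lines of NPM1, NCL and FBL run in opposite directions.

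Among the other SL1 subunits, TAF1D was lower, at -0.13, -0.14 and -0.21 in replicates 1, 2 and 3 (log2 fold change -0.16 ± 0.10 standard error), from 36.6, 22.4 and 15.6 scaled FPKM in Scr to 33.2, 20.2 and 13.3 in ROCK2 KD. TAF1B was lower, at -0.02, -0.01 and -0.24, with its first 2 pairs almost level. TAF1A had differences of -0.13, 0.35 and -0.24 and a fold change of -0.01. TBP, which is not among the 54 genes and also serves Pol II and Pol III, differed by -0.31, -0.06 and 0.06, with a fold change of -0.10 ± 0.12 (standard error). UBTF, which bends and opens the ribosomal DNA, was lower, at -0.06, -0.03 and -0.12. RRN3, which joins Pol I to SL1, was lower in replicate 1, at -0.48 and higher in replicates 2 and 3 by 0.32 and 0.17, and TTF1, the termination factor, differed by -0.28, 0.41 and -0.05. Of the 14 Pol I genes, 5 were lower in all pairs (TAF1C, POLR1D, TAF1D, TAF1B and UBTF), or 35.7%, and 0 were higher in all pairs, where 12.3% of all genes tested were lower and 12.7% higher in all pairs. Over all 54 genes, 7 were lower and 1 higher in all pairs, and of the 37 processing factors 2 were lower and 1 higher. RRN3 has near-identical pseudogene copies, and its values are uncertain to the extent that reads were split between them.

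Besides POLR1D, given above, the other Pol I subunits had no unadjusted p under 0.05. POLR1A, the largest subunit, stood at 0.06 ± 0.11 (log2 fold change ± standard error) and POLR1B, the second largest, at 0.04 ± 0.11, each higher in replicates 1 and 2 and lower in replicate 3. POLR1C, shared with Pol III, had a fold change of -0.06 ± 0.10. The Pol I-specific pair POLR1E and CD3EAP was lower in replicate 3, at -0.33 and -0.65, and higher in replicates 1 and 2, by 0.10 and 0.21 for POLR1E and by 0.05 and 0.07 for CD3EAP. CD3EAP shares 49.8% of its exon bases with ERCC1 on the opposite strand, so its value is uncertain. ZNRD1, the subunit that helps cleave stalled transcripts, stood at 15.6, 30.4 and 3.61 scaled FPKM in ROCK2 KD and at 17.2, 29.9 and 3.43 in Scr. Both libraries of replicate 3 were low and the pairs nearly level, with differences of -0.13, 0.02 and 0.06. It lies on chromosome 6 (30026676 to 30032686) and shares 24.5% of its exon bases with an antisense gene.

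The processing factors had a median log2 fold change of -0.04, like the Pol I machinery (-0.04), but their pairs ran against each other. In replicate 3, 35 of 37 were lower in ROCK2 KD (94.6%), where 50.1% of all genes tested were lower. In replicate 2, 30 of 37 were higher (81.1%), where 48.7% of all genes tested were. In replicate 1 they were split, with 18 lower (48.6%) and 19 higher, where 48.0% of all genes tested were lower. Their median difference was 0.02, 0.16 and -0.31 in replicates 1, 2 and 3, beside medians of 0.01, -0.01 and -0.00 over all genes tested. As many as 28 of the 37 (75.7%) were higher in replicate 2 and lower in replicate 3, against 22.0% of all genes tested. Under each of the other scalings, the other pseudocount and the corrections for GC content and length, the number lower in replicate 3 was 34 or 35. The number higher in replicate 2 was 29 to 32. The other filters could not change these counts, since every processing factor passed them.

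**Figure D3:**
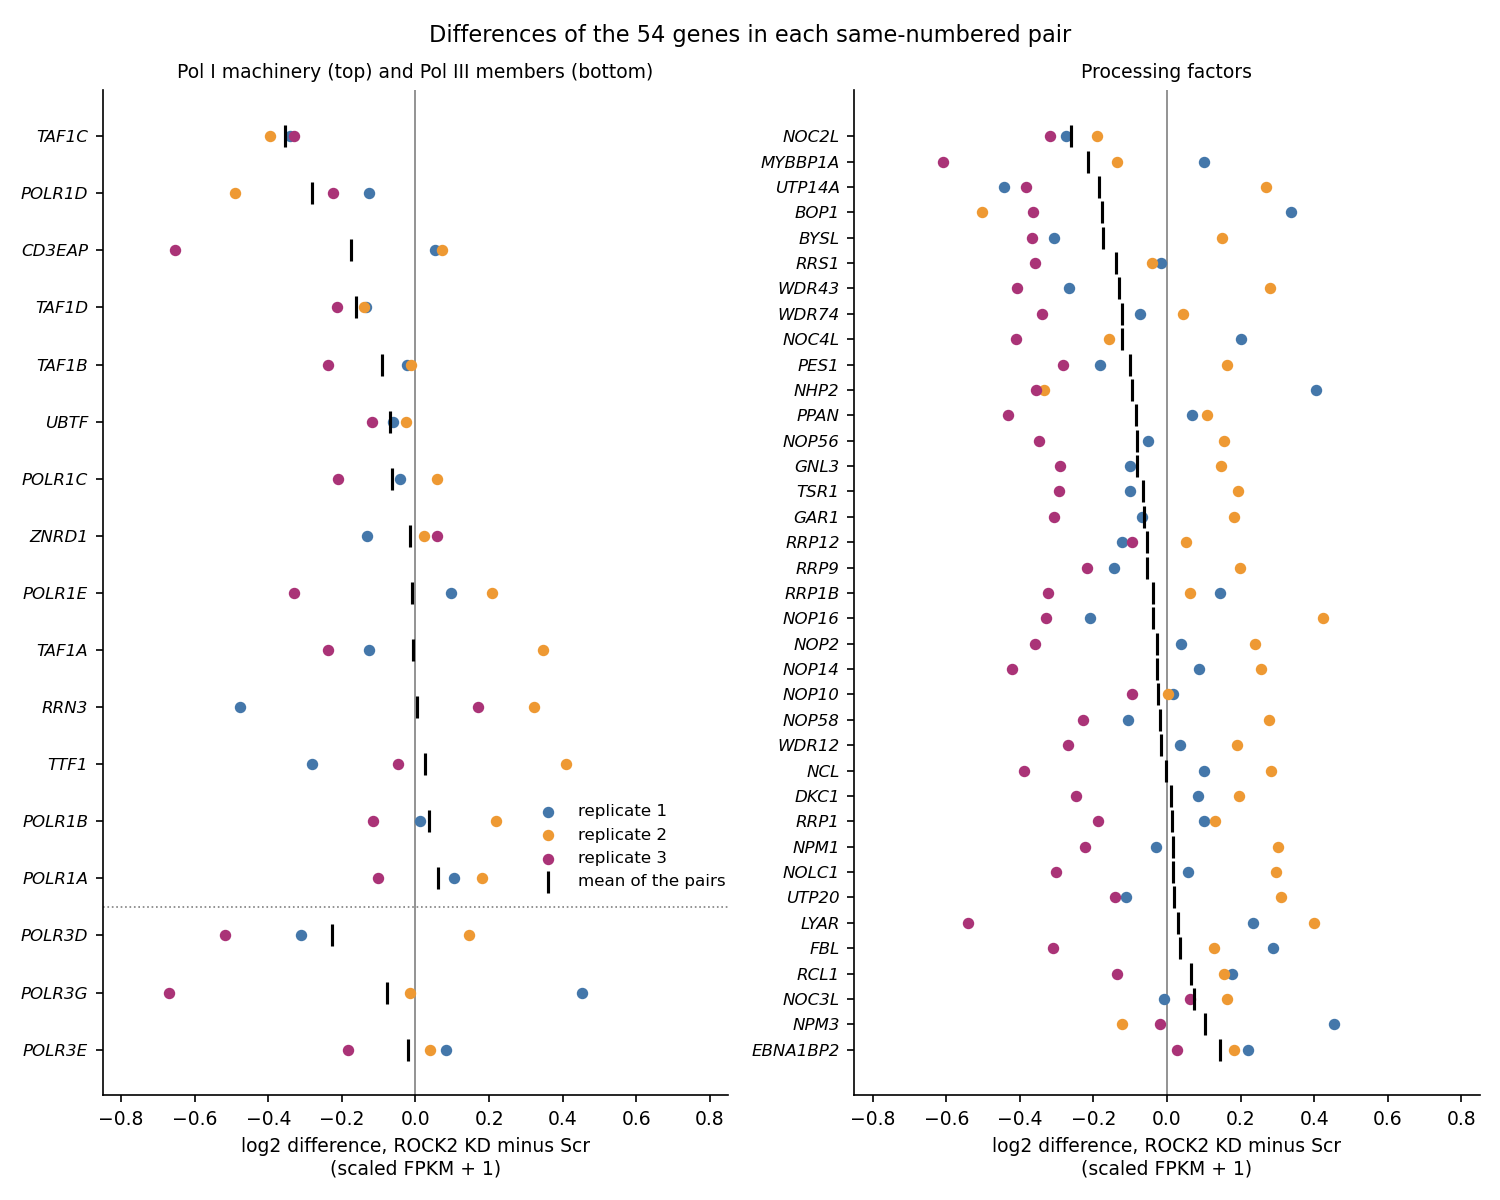
Log2 difference of each gene, ROCK2 KD minus Scr, in replicates 1, 2 and 3 (coloured points) with their mean (black bar), on log2(scaled FPKM + 1). Among the processing factors the replicate 3 points lie below 0 for 35 of 37 genes and the replicate 2 points above 0 for 30, while TAF1C and NOC2L have all points on the same side.

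The Pol I machinery shared this pattern in part, with 10 of 14 genes lower in replicate 1, 5 in replicate 2 (51.3% of all genes tested) and 12 in replicate 3, and medians of -0.09, 0.06 and -0.21. Of these 14 genes, 7 (50%) were higher in replicate 2 and lower in replicate 3. Leaving out replicate 3 turned the median fold change of the processing factors from -0.04 to 0.08, and leaving out replicate 2 gave -0.15. For the Pol I machinery the same steps gave -0.01 and -0.14.

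The 3 genes with the highest level in Scr, all processing factors, follow the split between replicates 2 and 3. NPM1, a nucleolar chaperone, was measured at 431, 569 and 859.8 scaled FPKM in ROCK2 KD replicates 1, 2 and 3 and at 439.8, 462 and 1003 in Scr, or 620.1 ± 219 and 635 ± 319 (SD, n = 3). The replicate 3 libraries of both groups stood above the others. Its pair differences of -0.03, 0.30 and -0.22 gave a fold change of 0.02 ± 0.12 (standard error). NPM1 has many processed pseudogenes, so its reads may be shared with copies.

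NCL (nucleolin), which binds nascent ribosomal RNA, was at 119, 282 and 201 in ROCK2 KD and at 111, 232 and 263 in Scr, and its highest library was replicate 2 in ROCK2 KD but replicate 3 in Scr. Its differences were 0.10, 0.28 and -0.39, with a fold change of -0.00 ± 0.14 (standard error). FBL (fibrillarin), the methyltransferase of the box C/D snoRNPs, was at 136, 217 and 170.1 in ROCK2 KD and at 111, 198 and 211 in Scr. It was higher in replicates 1 and 2 by 0.29 and 0.13 and lower in replicate 3, at -0.31, for a fold change of 0.04 ± 0.13 (standard error). The sign of all 3 fold changes depends on which pairs are used.

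MYBBP1A, a nucleolar protein that binds MYB, had the largest replicate 3 difference among the processing factors. Its scaled FPKM was 15.6, 28.3 and 23.1 in ROCK2 KD and 14.4, 31.2 and 35.8 in Scr. The pair differences were 0.10, -0.14 and -0.61 and the fold change -0.21 (standard error 0.15, limma, unadjusted p = 0.192, adjusted p = 0.960). Without replicate 1 its fold change was -0.37 (limma, unadjusted p = 0.0424, adjusted p = 0.534), and without replicate 3 it was -0.02 (unadjusted p = 0.908), so the value rests mostly on the replicate 3 pair. The study names TAF1C among the genes induced by ROCK2, from its own test of these libraries, and reports lower MYBBP1A in ROCK2 KD. The latter came from RT-qPCR of the same kind of knockdown cells, a different measure that was not analysed here. In these libraries both fold changes were negative, with no adjusted p under 0.05 in limma with the replicate block.

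The other partners of FBL in the box C/D snoRNP had the same signs in replicates 2 and 3. NOP56 had differences of -0.05, 0.16 and -0.35, NOP58 of -0.11, 0.28 and -0.23, and RRP9, which binds the U3 snoRNA, of -0.14, 0.20 and -0.22. In the H/ACA snoRNP, which guides pseudouridine formation, the catalytic subunit DKC1 differed by 0.08, 0.20 and -0.25 and GAR1 by -0.07, 0.18 and -0.31. NHP2 differed by 0.40, -0.34 and -0.35, and NOP10 was nearly level at 0.02, 0.00 and -0.10. Of these 4, only NHP2 was lower in replicate 2. Exons of RMND5B on the opposite strand cover 28.05% of the exon bases of NHP2, so its value is uncertain. Opposite-strand genes also cover 26.9% of the exon bases of TSR1, 20.7% of NOP14, 18.6% of NOP16, 18.3% of POLR1C and 13.7% of EBNA1BP2. NOLC1, a snoRNP chaperone, differed by 0.06, 0.30 and -0.30.

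Most small subunit factors were likewise higher in replicate 2 and lower in replicate 3. UTP14A differed by -0.44, 0.27 and -0.38, WDR43 by -0.27, 0.28 and -0.41, BYSL by -0.31, 0.15 and -0.37, NOP14 by 0.09, 0.26 and -0.42 and UTP20 by -0.11, 0.31 and -0.14. TSR1 (-0.10, 0.19 and -0.29), RCL1 (0.18, 0.15 and -0.14) and RRP12 (-0.12, 0.05 and -0.10) were also higher in replicate 2 and lower in replicate 3. NOC4L, a partner of NOP14, was the exception, with 0.20, -0.16 and -0.41. Without replicate 2, UTP14A, BYSL and WDR43 had an unadjusted p under 0.05 (limma, 0.0209 to 0.0428), and none of them did with all pairs.

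Of the PeBoW complex, which matures the large subunit, PES1 and WDR12 were higher in replicate 2 by 0.16 and 0.19 and lower in replicate 3, at -0.28 and -0.27. The third subunit, BOP1, was higher in replicate 1 and lower in replicates 2 and 3, with 0.34, -0.50 and -0.36, from 14.2, 36.7 and 50.7 scaled FPKM in Scr to 18.2, 25.7 and 39.1 in ROCK2 KD. Of the remaining large subunit factors, NOP16 (-0.21, 0.43 and -0.33), NOP2 (0.04, 0.24 and -0.36), PPAN (0.07, 0.11 and -0.43), GNL3 (-0.10, 0.15 and -0.29), WDR74 (-0.07, 0.04 and -0.34), RRP1 (0.10, 0.13 and -0.19) and RRP1B (0.14, 0.06 and -0.32) were higher in replicate 2 and lower in replicate 3. RRS1 was lower in all pairs, at -0.02, -0.04 and -0.36. PPAN and NOP2 share 49.2% and 54.4% of their exon bases with other annotated genes on the same strand, and those reads cannot be assigned to a single gene.

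Of the 37 processing factors, 9 departed from this order, namely NOC2L, MYBBP1A, NHP2, NOC4L, BOP1 and RRS1, described above, and EBNA1BP2, NOC3L and NPM3. EBNA1BP2 was the only one of the 54 genes higher in all pairs, by 0.22, 0.18 and 0.03, at 27.7, 66.5 and 61.1 scaled FPKM in ROCK2 KD and 23.6, 58.5 and 60.0 in Scr. Its fold change was 0.14 ± 0.10 (standard error). NOC3L differed by -0.01, 0.16 and 0.06, and NPM3, a relative of NPM1, by 0.45, -0.12 and -0.02. LYAR, which follows the order, had the widest swing of the E-box genes shown above, at 0.23, 0.40 and -0.54, with 26.1, 61.5 and 65.6 scaled FPKM in Scr and 30.9, 81.4 and 44.8 in ROCK2 KD.

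The 19 genes with an E-box in the window and the 26 with a window but none were set side by side, as a description. Of the former, 17 are processing factors and 1 belongs to the Pol I machinery, and of the latter, 14 and 12, so this split largely repeats the one between these lists. With an E-box, 9 genes were lower in replicate 1, 18 were higher in replicate 2 and 17 were lower in replicate 3, with medians of 0.02, 0.16 and -0.31. Without one, 16 were lower in replicate 1, 17 were higher in replicate 2 and 24 were lower in replicate 3, with medians of -0.05, 0.12 and -0.24. The study reports less MYC protein but more MYC transcript, by RT-qPCR, in U2932 ROCK2 KD cells, so MYC RNA does not stand for the protein. In these libraries the MYC transcript was at 1.70, 3.58 and 3.32 scaled FPKM in ROCK2 KD and at 1.08, 3.81 and 5.44 in Scr. Its differences were 0.38, -0.07 and -0.58, with a fold change of -0.09 ± 0.18 (log2, standard error). Replicate 3 also held the deepest ROCK2 difference (-1.52). Of the 9 B cell markers, 5 were lower and 4 higher in that pair, while all 9 were higher in replicate 1 and 7 in replicate 2. CD22, a B cell surface protein named after its values were seen, differed by 1.08, 0.32 and -1.54 in replicates 1, 2 and 3. The part of these differences in the values of the 54 genes was not tested.

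Small nucleolar and small Cajal body RNAs are cut from introns of host genes, and 10 of the 54 genes hold an annotated one: TAF1D, POLR1C, NCL, DKC1, NOP56, NOP58, WDR43, PPAN, GNL3 and TSR1. TAF1D holds 8, more than any other of the 54, and POLR1C holds only a small Cajal body RNA, SCARNA15. Same-strand exons that include such RNAs cover 11.9% of the exon bases of TAF1D and 6.65% of NOP56, so part of their reads may belong to these. All 10 hosts were lower in replicate 3 and 9 were higher in replicate 2, with median differences of -0.07, 0.17 and -0.29. Of the 44 other genes, 40 were lower in replicate 3 and 32 higher in replicate 2, with medians of 0.00, 0.15 and -0.29.

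The 3 Pol III subunits also had their lowest difference in replicate 3. POLR3D differed by -0.31, 0.15 and -0.52, POLR3E by 0.08, 0.04 and -0.18, and POLR3G, the isoform of growing cells, by 0.45, -0.01 and -0.67. POLR3G was at 5.13, 4.42 and 4.68 scaled FPKM in ROCK2 KD and 3.48, 4.47 and 8.04 in Scr, so the Scr libraries lie further apart than the groups. Of 25 other Pol III and shared subunits, 16 were lower in replicate 3 (64.0%) and 12 higher in replicate 2 (48.0%), with a median of -0.03 in each, closer to all genes tested than the processing factors were.

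Assembly factors outside the 54 genes were counted as a further list. Of 40 other small subunit processome genes, 36 were lower in replicate 3 and 33 higher in replicate 2, with medians of -0.05, 0.14 and -0.14 in replicates 1, 2 and 3. Of 48 other large subunit assembly genes, 46 were lower in replicate 3 and 39 higher in replicate 2, with medians of -0.05, 0.11 and -0.21. Each list had 0 genes at an adjusted or an unadjusted p under 0.05 in either direction (limma). Of 22 genes of the RNA exosome and snoRNP assembly, 16 were lower in replicate 3 and 12 higher in replicate 2. Within that list EXOSC4, an exosome subunit, was the only gene past an unadjusted p of 0.05 (0.0364, adjusted p = 0.905, limma), lower, at -0.15, -0.46 and -0.24. TCOF1, the nucleolar protein treacle that works with UBTF, had the lowest replicate 3 difference of these lists, at -0.97, after -0.14 and 0.05 in replicates 1 and 2.

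**Figure D4:**
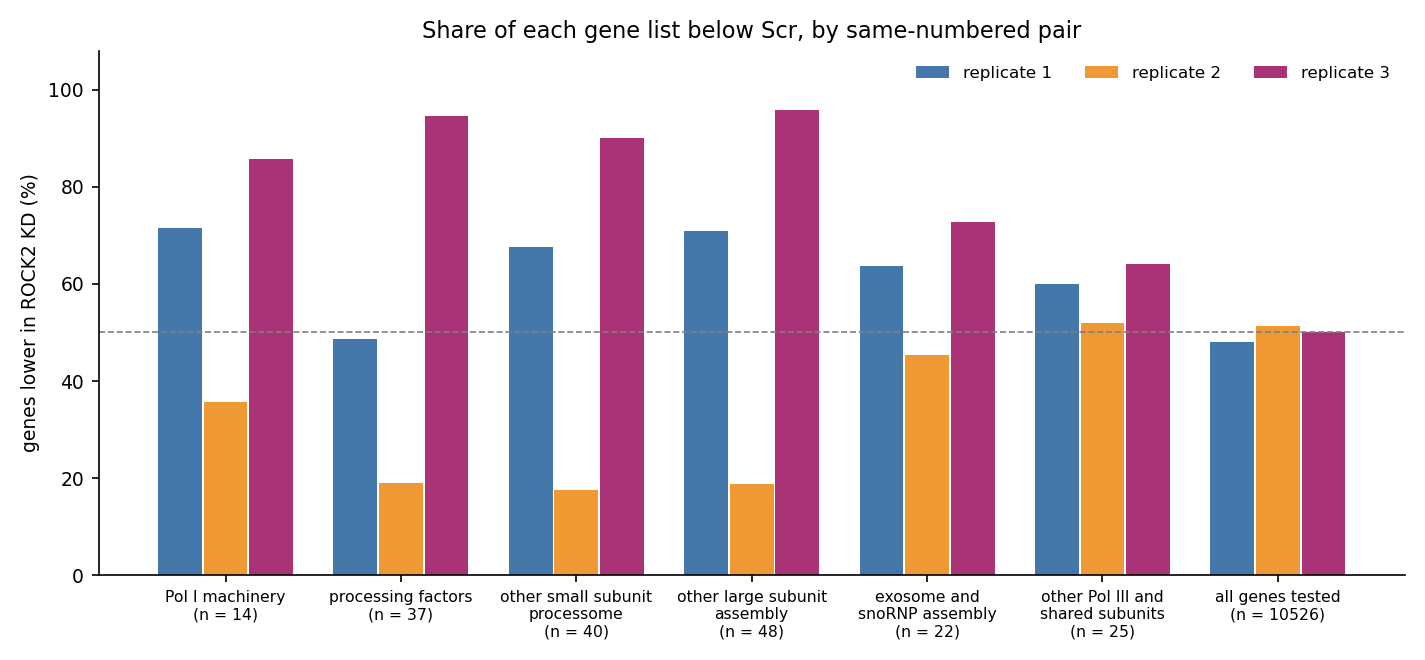
Percentage of each list's tested genes that were lower in ROCK2 KD than in Scr, for the pairs of replicates 1, 2 and 3, with a dashed line at 50%. In replicate 3 the processing factors reach 94.6% and all genes tested 50.1%, and in replicate 2 the processing factors lie at 18.9% and all genes tested at 51.3%.

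The ribosomal RNAs, which Pol I makes, were not analysed here. Of 14 listed products of Pol I and Pol III, only RMRP and RPPH1, RNA subunits of the ribosomal RNA and tRNA processing enzymes RNase MRP and RNase P, were in the tables used. RMRP was at 8.16, 1.5 and 63.8 scaled FPKM in ROCK2 KD and at 50.4, 6.08 and 61.8 in Scr, with differences of -2.49, -1.5 and 0.04. RPPH1 was at 2.38, 0.49 and 34.8 in ROCK2 KD and 20.4, 1.11 and 23.9 in Scr. Both vary over more than 10-fold between libraries of the same group, and neither had an adjusted p under 0.05 (limma). For RMRP the log2 fold change was -1.32 (standard error 0.41, limma, unadjusted p = 0.0158, adjusted p = 0.869), with the knockdown lower in replicates 1 and 2 only. For RPPH1 it was -0.88 (standard error 0.52, limma, unadjusted p = 0.137, adjusted p = 0.957).

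The replicate numbers separated the processing factors further than the groups did. All 37 processing factors had their lowest Scr level in replicate 1 and their lowest ROCK2 KD level in replicate 1, which held for 6 of 14 genes of the Pol I machinery and 32.6% of all genes tested, and for 50.5% of the 5057 genes with a mean scaled FPKM of at least 10. It also held for 35 of 40 other small subunit processome genes, 38 of 48 other large subunit assembly genes and 15 of 22 genes of the RNA exosome and snoRNP assembly. The median log2 level of replicate 1, relative to the mean of replicates 2 and 3, was -0.77 in Scr and -0.72 in ROCK2 KD for the processing factors, and 0.09 and -0.13 for the Pol I machinery. Scaling to equal totals moved the same median of all genes tested from 0.01 to 0.28 in Scr and from 0.00 to 0.21 in ROCK2 KD. The processing factors then stood at -0.46 and -0.49, with 26 of 37 lowest in replicate 1 of both groups, beside 17.5% of all genes tested. The median SD of log2 levels across the Scr libraries was 0.46 for the processing factors and 0.36 for the Pol I machinery, beside a median absolute log2 fold change of 0.06 for each. Over all genes tested the same values were 0.28 and 0.09, so a replicate spread above the fold change was general.

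**Figure D5:**
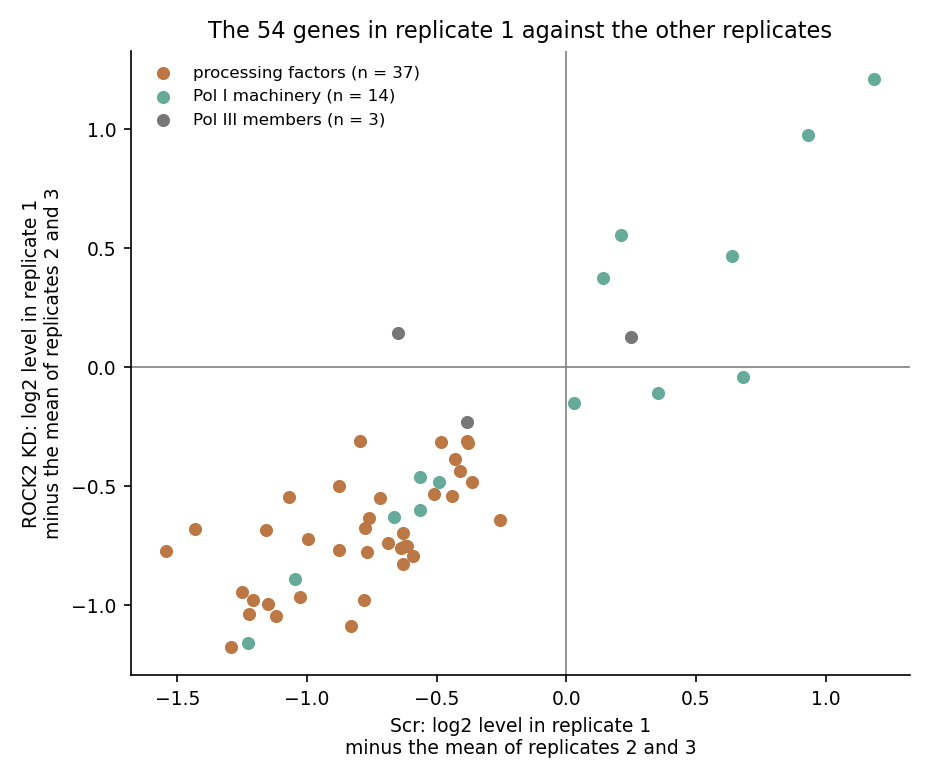
Log2 level of each gene in replicate 1 minus its mean level in replicates 2 and 3, in Scr (horizontal axis) and ROCK2 KD (vertical axis), on log2(scaled FPKM + 1). All 37 processing factors lie below 0 on both axes, while the 14 genes of the Pol I machinery lie on both sides.

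NHP2, whose reads may in part belong to RMND5B, is an example of this spread. It was at 56.8, 127 and 189 scaled FPKM in Scr and at 75.4, 100.3 and 147 in ROCK2 KD, so libraries of the same group lie much further apart than those of a pair, and its fold change was -0.10 ± 0.16 (log2, standard error). Which genes pass an unadjusted p of 0.05 also follows the pairs used: without replicate 1 they were BOP1, NHP2, POLR1D, TAF1C and MYBBP1A, without replicate 2 UTP14A, POLR3D, BYSL and WDR43, and without replicate 3 TAF1C and, higher, LYAR. TAF1C was the only gene in more than 1 of these sets.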

How the data were processed

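The 6 libraries were assigned to ROCK2 KD or Scr by the deposited labels, which number the replicates 1 to 3 in both groups. Per the labels and the study's methods, the authors prepared paired-end Nextera libraries from total RNA, used STAR for alignment to hg19 and deposited FPKM from Cufflinks. The authors' differential test used ComBat and limma on read counts, which were not used here. The unit has no counts, so a limma fit took the place of a count test and the number of reads behind a value is not known.

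A trimmed mean of the log ratios (0.3 of ratios and 0.05 of levels trimmed) brought the libraries to a common level. The 10526 genes at an FPKM of 1 or more in 3 or more libraries were fitted on log2(scaled FPKM + 1), a scale that understates the change of low genes, with limma 3.58.1 (R 4.3.3), the replicate number as a block, a mean-variance trend and two-sided p-values adjusted by Benjamini-Hochberg over all genes tested at a threshold of 0.05. The pairing comes from the shared replicate numbers and the study's replicate correction. Deviations from the group means went together in libraries of the same number (correlations across genes of 0.848, 0.784 and 0.737, against -0.64 to 0.05 between numbers). Fits were tested on simulated data. Alternatives were no replicate block, ComBat (written from its parametric form, without the condition) before limma, 3 scalings, a pseudocount of 0.1, 2 filters, no trend, GC and length corrections, and leaving out each replicate.

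The members and gene lists were chosen with earlier results of these data known, and lists are given by counts and medians with no test. Values in every library are given for genes with an unadjusted p under 0.05 and 1 direction in all pairs, for the 3 highest in Scr, and for TAF1C and MYBBP1A; values of other genes were chosen after they were seen. Gene positions, exon overlaps and hosts of small nucleolar and small Cajal body RNAs come from GENCODE 44 on GRCh37. Promoters come from the RefSeq table of GRCh38.p14, and no coordinates were converted. Proteins were not analysed here. Tables were made with Python 3.11.15 and pandas 2.3.3.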

Additional observations from a re-analysis of the deposited data

How the results depend on the processing

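No gene of the 54 had an adjusted p under 0.05 in limma under any alternative except ComBat followed by limma with no replicate block, which called 2 (TAF1C, log2 fold change -0.27, adjusted p = 0.0279, and NOC2L, -0.20, adjusted p = 0.0339). In that fit, whose p-values can be too small, 1 gene (EBNA1BP2) was higher at an unadjusted p under 0.05, against 0 in the reported fit. Without the replicate block, 0 genes were lower at an unadjusted p under 0.05, against 3 with it, and over all genes 30 had an unadjusted p under 0.05, against 567. With each replicate left out, the number lower at an unadjusted p under 0.05 ran from 1 (without replicate 3) to 5 (without replicate 1) and the number higher from 0 to 1, and the number with an adjusted p under 0.05 stayed at 0. Over all genes tested, 0 had an adjusted p under 0.05 in the reported fit, 297 with ComBat (160 higher, 137 lower), 17 without replicate 1, 4 without replicate 3 and 0 in every other alternative run. Fold changes near 0 changed sign: NPM1 was -0.0070 with the replicate block and GC correction, and lay between -0.13 (without replicate 2) and 0.14 (without replicate 3). NCL was 0.016 with ComBat and 0.0061 with no scaling, and lay between -0.14 (without replicate 2) and 0.19 (without replicate 3). FBL lay between -0.091 (without replicate 1) and 0.21 (without replicate 3), with -0.011 without replicate 2. The cause was not tested. TAF1C, POLR1D, NOC2L and MYBBP1A had a negative fold change in all alternatives run, but those of 2 moved by over 1.5 times. MYBBP1A, at -0.21 in the reported fit, was -0.02 without replicate 3 (unadjusted p = 0.908), -0.37 without replicate 1, -0.13 with the replicate block and GC correction and -0.14 with ComBat, and POLR1D, at -0.28, was -0.18 without replicate 2 (unadjusted p = 0.222). The median fold change without replicate 3 changed sign for the processing factors (0.08, against -0.04) and for the Pol III subunits (0.06, against -0.08). Depth limits what a low FPKM can show, and the number of reads behind a value is not known, so no counting interval is given.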
